A study of Mus musculus with 7 samples.

Results

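Mouse fetal livers that carried a wild-type Taf10 allele were compared with livers in which both Taf10 alleles were flanked by lox sites, the recognition sites of the Cre recombinase. The members were chosen by the alleles in the sample titles, and all 7 libraries of the study entered: 3 carriers of a wild-type allele and 4 lox/lox livers. All embryos were labelled as strain C57BL/6 at stage E12.5, and total RNA had been taken from single-cell suspensions of the livers. The carriers were the 3 livers of the genotype TAF10HET. Replicate 1 was lox/wild-type, replicates 2 and 3 were wild-type/knockout, and all 3 had EpoCre. The series text names the driver as EpoR-Cre; the erythropoietin receptor gene Epor is active in erythroid cells. The lox/lox livers were the 2 of the genotype TAF10KO, with EpoCre, and the 2 labelled WT, without it. TAF10KO is lox/lox in the titles and lox/KO in the series text, and the titles are followed here. Every carrier therefore had 1 wild-type and 1 modified Taf10 chromosome, and by the titles no lox/lox liver had a wild-type one. Titles also hold a 6-digit code that reads as a date. The first code covered carrier replicate 1, TAF10KO replicate 1 and WT replicate 1, and the second covered the other 4 libraries, so that allele type among carriers and date code cannot be told apart. Values are given below for carrier replicates 1, 2 and 3 in that order, and for replicate 1 and then replicate 2 of TAF10KO and of WT.

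Taf10 encodes a subunit of the general transcription factor TFIID and of the coactivator SAGA. A gene modified in embryonic stem cells and bred into a strain keeps a stretch of the stem cells' chromosome around it, and genes in that stretch can differ between littermates with and without the modified allele when stem cells and breeding strain differ in sequence. The strain of the stem cells is not given in the sources used here. On chromosome 7 the neighbourhood of Taf10 holds the beta-globin cluster, a cluster of Trim genes of antiviral proteins related to Trim5, a family of large interferon-inducible GTPases and a large array of olfactory receptor genes. The beta-globin cluster exists in several haplotypes among laboratory mice. C57BL/6 has one in which the adult genes are Hbb-bs and Hbb-bt, and some other strains have one with Hbb-b1 and Hbb-b2.

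The adult beta-globin genes of the reference genome are shown first because one of them gave the best supported difference, and its reads can be told from those of the other only in part. Their coding sequences are 444 bases each and differ at 1 base, T417C with the base of Hbb-bt first and positions counted from the start codon. These are the last 60 coding bases, positions 385 to 444, in GENCODE M21 transcripts of GRCm38 (mm10), chromosome 7, minus strand, 5′ to 3′, with the differing base in capitals.
Hbb-bt: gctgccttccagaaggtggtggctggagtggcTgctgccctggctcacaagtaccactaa
Hbb-bs: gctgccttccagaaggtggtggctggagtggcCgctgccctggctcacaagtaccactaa
The longest stretch shared without a difference is 416 bases. Of all stretches of 50 bases in the transcripts of the gene, 58.3% of those of Hbb-bt and 53.2% of those of Hbb-bs also occurred in another gene, so the levels of both are uncertain.

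Libraries held 18008391 to 43401474 reads in genes. Levels are given as CPM, counts scaled to a common library total with TMM factors. Erythroblast markers summed to 35200 to 47100 CPM in carriers and to 22500 to 42600 in lox/lox livers, and hepatocyte markers to 14900 to 20800 and 14700 to 23700, so both main cell types of the labelled tissue were present in every library. Carrier replicate 1 stood apart from the other libraries, with the small nuclear RNA Rn7sk at 196 CPM against 2.59 to 15.4 and the muscle actin Actc1 at 49.3 CPM against 1.79 to 3.11. It was the only carrier on the first date code. It and TAF10KO replicate 2 were male by Xist. The replicates of a group come from separately numbered livers, and fewer cells of a type cannot be told apart from less RNA per cell in these bulk samples.

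Taf10 itself (ENSMUSG00000043866, chromosome 7, 105739393 to 105744361, mm10) did not separate the classes. The carriers had 78.3, 63.6 and 63.0 CPM. The TAF10KO livers had 37.9 and 43.8 CPM, and the WT livers 72.1 and 96.3 CPM. The TAF10KO livers were the lowest of the 7 libraries and the WT livers lay around the carriers, so the classes overlapped. The log2 difference, carriers minus lox/lox, was 0.13 (SE 0.354, adjusted p = 0.991), with 0.58 on the first and -0.04 on the second date code. Counts over the whole gene include exons outside any deleted part and do not measure the extent of deletion. Epor, the gene the driver is named for, stood at -0.05 (adjusted p = 0.996).

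The genes next to Taf10 were close to equal in both classes. The 8 nearest protein-coding genes with an average log2 CPM of 1 or more had log2 differences between -0.11 and 0.08, and none was called. They included Tpp1, a lysosomal peptidase (-0.11), Rrp8, a nucleolar methyltransferase (0.02), Mrpl17, a protein of the mitochondrial ribosome (0.08), and Arfip2, a binding partner of small GTPases (0.03). Dnhd1 (-0.06), the mitochondrial import factor Timm10b (0.06), the cadherin Dchs1 (0.05) and the ubiquitin ligase Trim3 (0.07) were the others. Their adjusted p-values were all 0.983 or more, and the smallest unadjusted p was 0.245 in edgeR; DESeq2 called none of them either. The nearest genes thus gave no difference above the spread between libraries, and the differences described next lay further away.

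Of 15350 genes tested, 3 were called at an adjusted p under 0.05 (0.0195%), all of them higher in carriers. These were the adult beta-globin gene Hbb-bt and the predicted GTPase pseudogene Gm1966, both within 2 Mb of Taf10, and Rprl3, an RNase P RNA-like gene on chromosome 8. At an unadjusted p under 0.05 there were 604 genes (3.93%), 319 higher (2.08% of those tested) and 285 lower. On chromosome 7 a fitted log2 difference over 1 in size was found for 22 of 1138 tested genes, 11 of the 163 within 10 Mb of Taf10 and 11 of the 975 beyond, as the plot of differences along the chromosome shows.

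**Figure D1:**
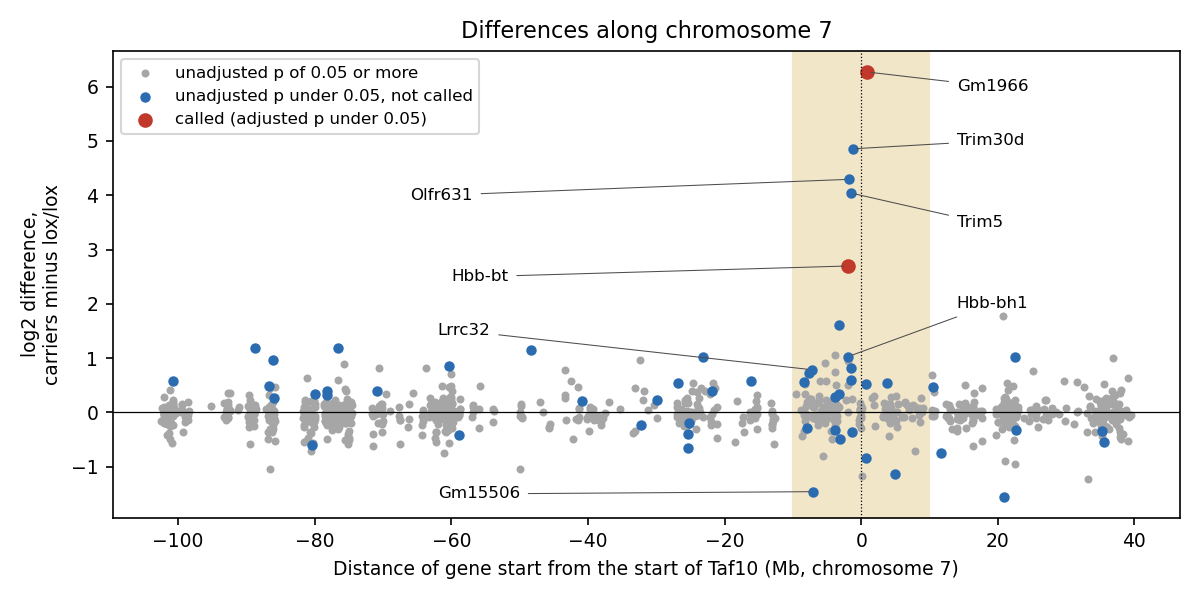
Log2 difference, carriers minus lox/lox, of the 1138 tested genes of chromosome 7 (vertical axis) against the distance of each gene's start from that of Taf10 in Mb (horizontal axis); the shaded band is 10 Mb on each side. Each point is 1 gene, and the 5 largest positive differences, from Hbb-bt at 2.70 to Gm1966 at 6.27, all lie in the band. All of these but Hbb-bt passed the filter on low counts only through the carriers.

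Hbb-bt (ENSMUSG00000073940, chromosome 7, 103812524 to 103813996) rose in carriers. The carriers had 4980, 5410 and 4910 CPM. The TAF10KO livers had 1070 and 636 CPM, and the WT livers 969 and 693 CPM. All carriers were above all lox/lox livers with a wide gap, the lox/wild-type carrier lay between those with a knockout allele, and the lox/lox livers with and without EpoCre lay close together on each date code. The means were 5100 ± 268 CPM (SD, n = 3) and 843 ± 212 (n = 4). The log2 difference was 2.70 (SE 0.154, adjusted p = 0.000626), with 2.29 on the first and 2.96 on the second date code. It stayed called in all 18 alternative analyses, with an adjusted p between 9.91e-105 and 0.0435. Between TAF10KO and WT, both lox/lox, the log2 difference of Hbb-bt was 0.15 on the first code and -0.12 on the second.

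Hbb-bs, the other adult gene, did not follow. The carriers had 14400, 18300 and 16300 CPM. The TAF10KO livers had 8920 and 17200 CPM, and the WT livers 13000 and 24100 CPM. The carriers lay within the range of the lox/lox livers, and its log2 difference was 0.01 (SE 0.20, adjusted p = 0.999). The reads of Hbb-bt made up 25.68%, 22.76% and 23.19% of the reads of both genes in the carriers. This share was 10.75% and 3.56% in TAF10KO and 6.91% and 2.79% in WT. The carriers lay close together (mean 23.9% ± 1.58, SD, n = 3), and the lox/lox livers were lower (6.0% ± 3.64, n = 4) and differed by date code. The widest 95% Wilson interval of these shares was 25.54% to 25.82%, which covers counting error only. The summed level of both genes overlapped between the classes, at 21500 ± 2210 CPM and 16700 ± 6300 CPM.

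The embryonic beta-like globins of the same cluster had positive log2 differences that missed the threshold. Hbb-bh1, expressed in primitive red cells, had 433, 763 and 925 CPM in carriers, 188 and 339 CPM in TAF10KO, and 234 and 493 CPM in WT. Each carrier was above the lox/lox livers of its own date code, while carrier replicate 1 lay below WT replicate 2 of the other code. Its log2 difference was 1.03 (SE 0.146, adjusted p = 0.170) and was nearly the same on the first (1.05) and the second code (1.04). No stretch of 50 bases of Hbb-bh1 occurred in another gene. Hbb-bh1 passed the threshold in 5 of 18 alternative analyses, among them DESeq2 (adjusted p = 1.59e-08), TAF10KO alone (0.0482) and WT alone (0.0429). It missed the threshold without the date block, with other size factors, with globins left out of the totals and with embryo sex as a term. The same held with each library left out in turn. Hbb-y, the other main embryonic gene, stood at 0.51 (adjusted p = 0.983). It had 1970, 3360 and 3010 CPM in carriers, 1070 and 1340 in TAF10KO, and 1940 and 2900 in WT. Each carrier was above the lox/lox livers of its own date code, but the classes overlapped across codes. The pseudogene Hbb-bh0 stood at 0.94 (adjusted p = 0.983). It had 0.778, 2.55 and 1.88 CPM in carriers, 0.272 and 0.344 in TAF10KO, and 1.17 and 1.53 in WT. Hbb-y and Hbb-bh0 were thus lowest in TAF10KO on each date code, and the WT livers lay nearer to the carriers. Hbb-bh2, too low to be tested, had 28 counts in carriers and 12 in lox/lox livers, a depth-adjusted ratio of 4.85 (exact 95% interval 2.39 to 10.5). Of the 6 genes of the cluster 5 were tested and 1 was called. The median log2 difference was 0.94, which is the value of Hbb-bh0, against 0.0 over all genes. The alpha-globin genes on chromosome 11 had a median of 0.48 with 0 of 5 called by either tool. At an unadjusted p under 0.05, 1 was higher, against 2.08% of all genes. Hba-a2 stood at 3740 to 3760 CPM in carriers and at 2120 to 3270 in lox/lox livers (log2 0.48, adjusted p = 0.983).

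**Figure D2:**
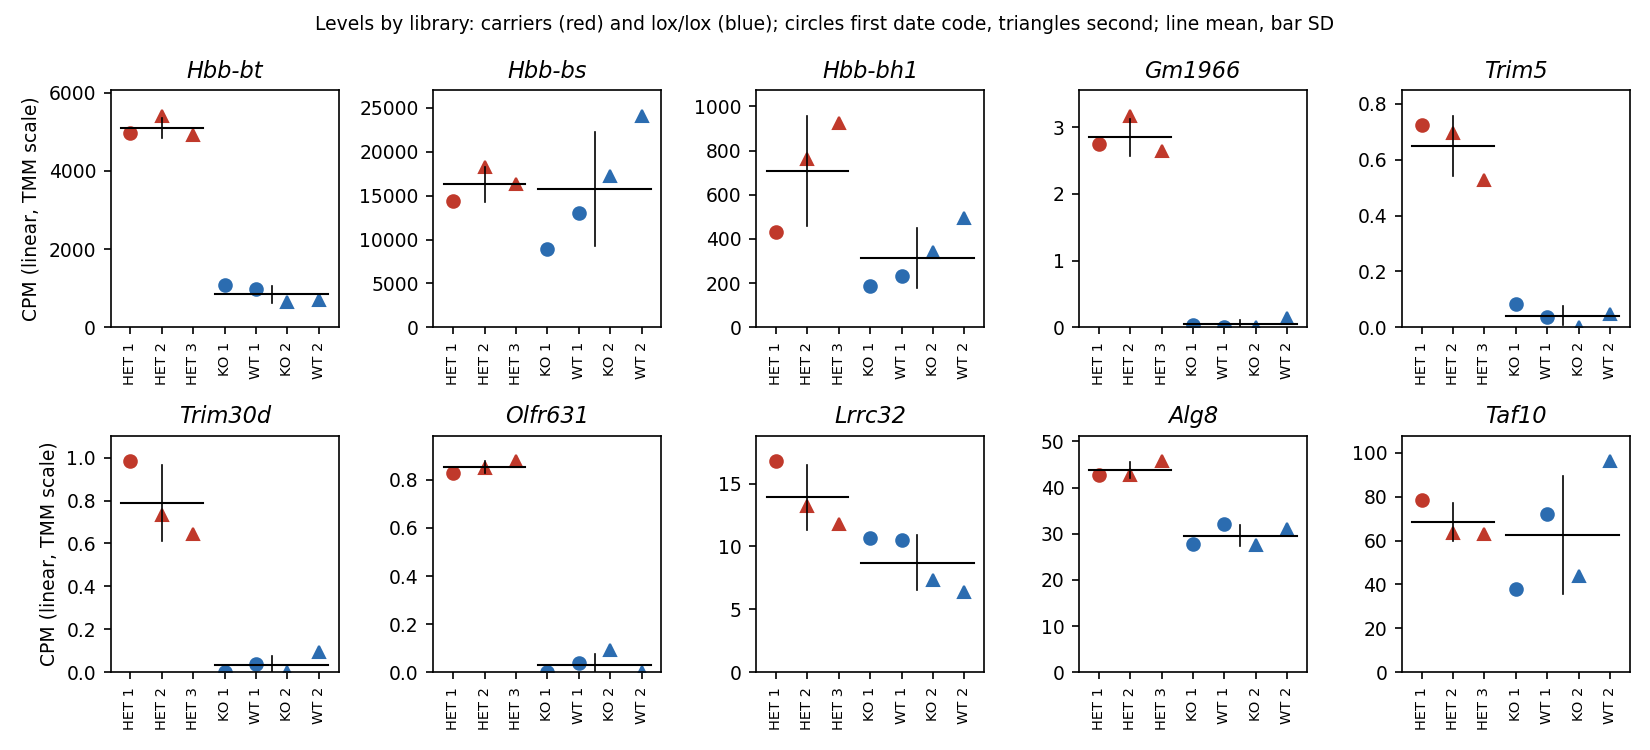
Levels in CPM on linear axes from 0, 1 panel per gene, in the 3 carriers (red) and the 4 lox/lox livers (blue), with circles for the first and triangles for the second date code, a line for the class mean and a bar for the SD. Hbb-bt, Gm1966, Trim5, Trim30d, Olfr631, Lrrc32 and Alg8 separate the classes, whereas Hbb-bs, Hbb-bh1 and Taf10 overlap.

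A second group of genes near Taf10 was detected in carriers and almost absent from lox/lox livers. Gm1966, an unprocessed pseudogene of the interferon-inducible GTPase family (ENSMUSG00000073902, 106596743 to 106604035), had 53, 82 and 45 counts in the carriers. It had 1 and 0 counts in TAF10KO and 0 and 3 in WT. No lox/lox liver came near a carrier, although the lox/lox libraries include the deepest of the 7. Over the classes, 180 counts against 4 gave a depth-adjusted ratio of 93.5 (exact 95% interval 35.9 to 347, counting error only). The fitted log2 difference was 6.27 (SE 0.612, adjusted p = 0.0183). Gm1966 passed the filter on low counts only through the carriers, so that it had to differ. Its call was lost without TAF10KO replicate 1 (adjusted p = 0.315), carrier replicates 1 (0.131), 2 (0.0883) or 3 (0.0917) or WT replicate 1 (0.0764), with embryo sex as a term (0.0528) and without the date block (0.596). The difference itself stayed between 5.37 and 7.71 in all 17 analyses that kept the gene, with the highest value without WT replicate 2.

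Trim30d, Olfr631 and Trim5, whose levels were lower, had the same shape and missed the threshold. Trim30d, of the antiviral Trim family, had 19, 19 and 11 counts in carriers, 0 and 0 in TAF10KO, and 1 and 2 in WT. The olfactory receptor gene Olfr631 had 16, 22 and 15 counts in carriers, 0 and 4 in TAF10KO, and 1 and 0 in WT. Trim5, a restriction factor for retroviral capsids, had 14, 18 and 9 counts in carriers, 3 and 0 in TAF10KO, and 1 and 1 in WT. In each of these genes the lowest carrier exceeded the highest lox/lox liver. The ratios were 33.9 (exact 95% interval 11 to 170), 22.0 (8.87 to 70.6) and 17.0 (6.74 to 55.2), and all had an adjusted p of 0.170 in edgeR. DESeq2 called all of them. Olfr632, beside Olfr631 and too low to be tested, had 25 counts against 3 (ratio 17.3, interval 5.28 to 89.6). These genes passed the filter on low counts only through the carriers, so those tested had to differ. Among all genes with 20 or more counts, 10 of 188 within 10 Mb of Taf10 (5.32%) had a ratio of 4 or more in either direction, against 159 of 17910 in the genome (0.888%). The 10 include Gm5900, with 77 of its 79 carrier counts in carrier replicate 1 alone. Stretches of 50 bases shared with another gene made up 36.3% of Trim5, 17.5% of Gm1966, 7.49% of Trim30d and none of Olfr631.

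Other members of the Trim cluster differed less and in both directions. Of its 14 genes 10 were tested, and 0 were called by edgeR and 2 by DESeq2 (Trim5 and Trim30d). At an unadjusted p under 0.05, 5 were higher and 2 lower in carriers. Over all genes 2.08% were higher and 3.93% passed in either direction. The median log2 difference of the cluster was 0.46. Both the 5 higher genes and the median include Trim5 and Trim30d. These 2 passed the filter on low counts only through the carriers, so they had to differ. Trim12a, a relative of Trim5, had 6.28, 5.64 and 7.32 CPM in carriers, 1.80 and 5.0 in TAF10KO, and 2.59 and 5.14 in WT. Every carrier was above every lox/lox liver, by more on the first code (1.51) than on the second (0.34). Trim21, an intracellular antibody receptor, was at 0.34, Trim68 at -0.49 and Trim12c at -0.37, each with an adjusted p of 0.983. Trim30a, the most abundant gene of its subgroup next to Trim30d, stood at 0.25. Its classes overlapped across codes, though each carrier was above the lox/lox livers of its own date code. In the GTPase family, 3 of the 7 genes found were tested, of which Gm1966 was called; Gm8995 stood at 0.52 and Gm4759 at -0.85 (adjusted p = 0.983 for both). The fitted values within both families thus had both signs. Because the copies share sequence, how reads were divided between copies was not tested.

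Further from Taf10, 2 genes with no stretch of 50 bases in another gene kept a moderate difference on both codes. They were chosen after their values were seen. Lrrc32, a cell surface protein that holds latent TGF-beta (at -7.26 Mb from Taf10), had 16.8, 13.2 and 11.8 CPM in carriers, 10.7 and 7.30 in TAF10KO, and 10.5 and 6.35 in WT. Alg8, a glucosyltransferase of N-glycan assembly (at -8.37 Mb), had 42.8, 42.7 and 45.8 CPM in carriers, 27.8 and 27.5 in TAF10KO, and 32.2 and 31.0 in WT. No carrier overlapped a lox/lox liver in either gene. The log2 differences were 0.79 (SE 0.119, adjusted p = 0.206) for Lrrc32 and 0.57 (SE 0.0922, adjusted p = 0.328) for Alg8. Both passed the threshold with DESeq2 and with no filter on low counts, and in none of the other analyses. In the opposite direction, the kinase gene Pak1 stood at -0.29 and the noncoding Gm15506 at -1.46 (adjusted p = 0.983 for both). The olfactory receptor gene Olfr543 stood at 1.62 (adjusted p = 0.983).

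Counted over windows, the share of genes with a difference was highest within 2 Mb of Taf10, and lower both in the narrower window of 1 Mb and in wider ones. Within 5 Mb on each side the files held 374 genes, of which 196 were olfactory receptor genes, 208 had any count and 87 were tested. Of these 87, 18 (20.7%) had an unadjusted p under 0.05, 13 higher and 5 lower, against 3.93% of all genes. The share was 15.8% of 19 genes within 1 Mb, 31.4% of 35 within 2 Mb, 14.1% of 163 within 10 Mb and 10.2% of 256 within 20 Mb. On the rest of chromosome 7, beyond 10 Mb, it was 3.18% of 975 genes, below that of all genes. Within 5 Mb of Epor on chromosome 9, the gene the driver is named for, it was 2.53% of 79. Gm1966, Trim30d, Olfr631 and Trim5 are among the higher genes within 2 Mb of Taf10 and in each wider window around it. They passed the filter on low counts only through the carriers, so they had to differ, and these shares include them.

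A count that uses no model was also highest in the window of 2 Mb. A gene was counted as separated when every carrier lay above, or every carrier below, both lox/lox livers on each date code. Over all genes 10.9% were separated, 803 higher (5.23%) and 875 lower (5.7%). Within 5 Mb of Taf10 it was 25 of 87 (28.7%), of which 20 were higher and 5 lower in carriers, within 2 Mb 12 of 35 (34.3%), and within 1 Mb 3 of 19 (15.8%). Within 10 Mb it was 24.5% and within 20 Mb 19.5%. Beyond 10 Mb on chromosome 7 the share was 9.74%. Genes close together are not independent, and part of the tested genes passed the filter through the carriers alone. Over genes with an average log2 CPM of 1 or more the median size of the log2 difference within 5 Mb was 0.131 against 0.084 over all such genes.

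In bins of 5 Mb over the autosomes, 412 bins had at least 10 tested genes. The bin of chromosome 7 from 100 to 105 Mb, which holds the beta-globin and Trim clusters, ranked first by the share of separated genes (33.9% of 59, 17 higher and 3 lower). By unadjusted p it ranked 3, at 22.0%. The bin from 105 to 110 Mb, which holds Taf10 itself, had 14.3% of 35 genes separated, below that from 95 to 100 Mb, which holds Lrrc32 and Alg8, with 21.6% of 37. Bins far from chromosome 7 reached comparable shares. A bin of chromosome 13 from 20 to 25 Mb, which holds a cluster of replication histone genes, had 23.9% of 71 genes at an unadjusted p under 0.05, all of them higher in carriers. The replication histone Hist1h4d, in that bin, stood at 16.5 CPM in carrier replicate 1 and at 0.435 to 1.71 in the other 6 libraries, and its own unadjusted p was 0.0799, so it is not among the 23.9%. Other replication histones of that bin, such as Hist1h3e, were also high in carrier replicate 1 alone. How far that library made up the share of the bin was not tested.

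**Figure D3:**
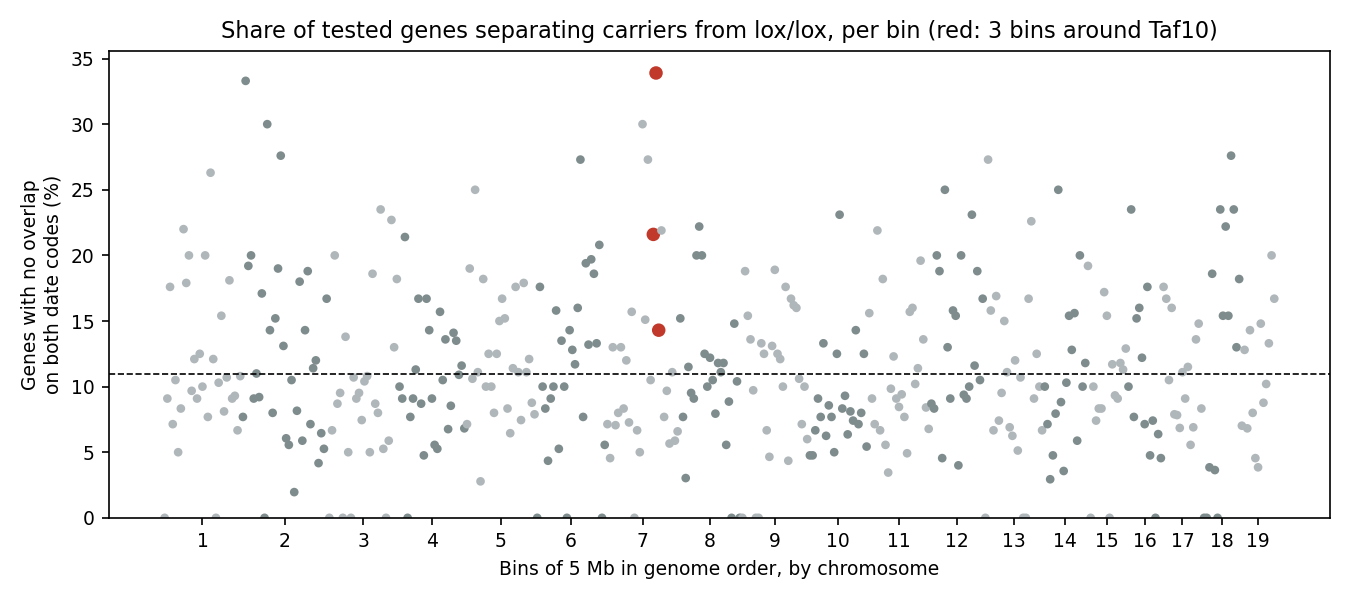
Percentage of tested genes that separated all carriers from all lox/lox livers on both date codes (vertical axis) in 412 bins of 5 Mb in genome order (horizontal axis, chromosomes 1 to 19), with the 3 bins around Taf10 in red and the value over all genes, 10.9%, as a dashed line. The highest bin is the one with the beta-globin and Trim clusters at 33.9%, and bins of several other chromosomes lie between 25% and 33.3%.

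The date codes gave separate measurements of the difference, since they share no library. On the first, 1 lox/wild-type carrier was set against 2 lox/lox livers; on the second, 2 wild-type/knockout carriers were set against 2 others. Across the 87 genes within 5 Mb of Taf10 both differences correlated at 0.86 (Pearson) and 0.45 (Spearman), and across all 15350 genes at -0.02 (Pearson). The correlation across genes is a description, since genes of 1 code share its libraries. Within the bin from 100 to 105 Mb Pearson's r was 0.84 without Hbb-bt, and 0.73 over its 47 genes with an average log2 CPM of 1 or more. The first value still includes Trim30d, Olfr631 and Trim5, which passed the filter on low counts only through the carriers. The second leaves those out but includes Hbb-bt, and no value was taken without both kinds of gene. Both kinds also enter the value over the 87 genes and the shares below. In the bin from 105 to 110 Mb it fell from 0.89 to 0.28 when Gm1966 was left out, so it rested there on that gene. A fitted log2 difference over 1 in size was found in 11.9% of the genes of the bin from 100 to 105 Mb and in 1.52% of all genes. A difference over 0.5 in size with the same sign on both codes was found in 12.6% of the 87 genes and in 1.79% of all genes.

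**Figure D4:**
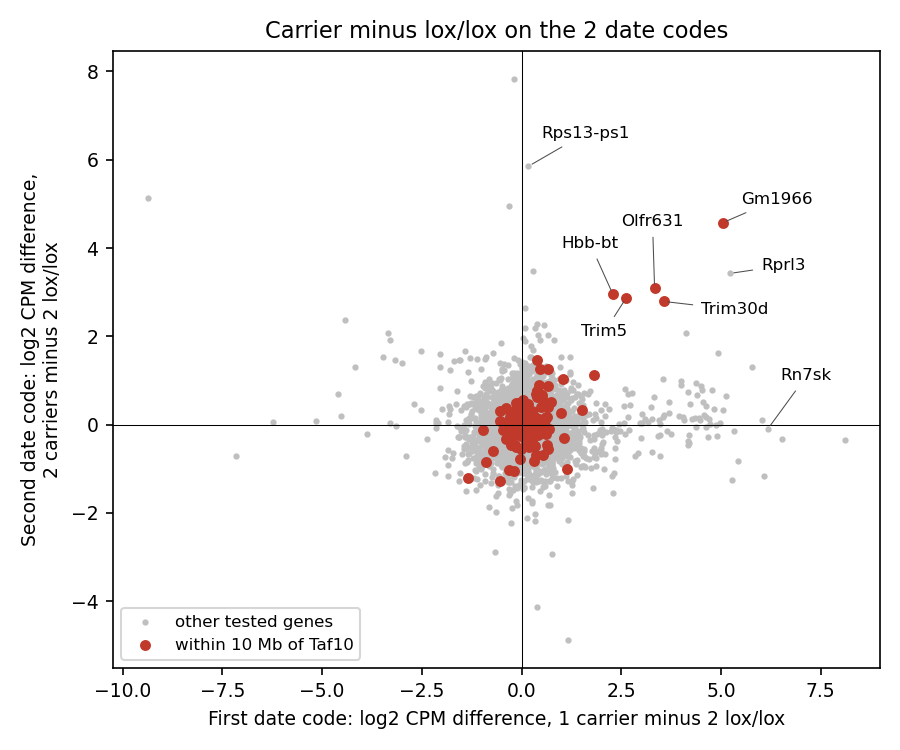
Log2 CPM difference of carriers from lox/lox livers on the first date code (horizontal axis, 1 carrier and 2 lox/lox livers) and on the second (vertical axis, 2 carriers and 2 lox/lox livers); each point is 1 gene, red within 10 Mb of Taf10 on chromosome 7. Hbb-bt, Gm1966, Trim30d, Trim5 and Olfr631 lie above 2 on both axes, while Rn7sk (6.18 and -0.09) and Rps13-ps1 (0.17 and 5.85) differ on 1 code only.

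Outside chromosome 7 the only called gene was Rprl3 (ENSMUSG00000088025, chromosome 8, 3803069 to 3803358). It had 5.60, 0.502 and 0.996 CPM in carriers, 0.0544 and 0 in TAF10KO, and 0.109 and 0 in WT. All carriers were higher, and carrier replicate 1 was far above the others. With 108, 13 and 17 counts in carriers and 0 to 3 in lox/lox livers, it passed the filter on low counts only through the carriers, so that it had to differ. The log2 difference was 6.22 (SE 0.498, adjusted p = 0.00533), and the call was lost without carrier replicate 1 (log2 7.38, adjusted p = 0.426), without TAF10KO replicate 1 (0.159), with embryo sex as a term (0.0672) and without the date block. Rn7sk and Rpph1, other short RNAs made by RNA polymerase III, stood highest in the same library, Rpph1 at 59.1 CPM against 0.474 to 10.1. Whether the high level of such RNAs in that library bears on Rprl3 was not tested.

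A test of whether the difference itself changed between date codes, added after the data were seen, called 42 of 15350 genes (0.274%) and 0 of the 87 within 5 Mb of Taf10 in edgeR, where 6 (6.9%) had an unadjusted p under 0.05 against 6.93% of all genes. On the second code the difference was lower for 36 of the 42 and higher for 6. Those lower included Rn7sk (log2 -6.30 between codes, adjusted p = 5.34e-05), Actc1 (-4.29, adjusted p = 0.00291) and the replication histone Hist1h4d (-4.84, adjusted p = 0.0101). The first-code difference of such genes was that of 1 library, so they are not counted here as differences between carriers and lox/lox livers. Hbb-bt differed between codes by 0.67 (adjusted p = 0.583), Gm1966 by -1.30 (0.890) and Hbb-bh1 by -0.02 (0.995).

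Gene programs outside the region gave no called member in this comparison, by edgeR or by DESeq2. Over all 15350 genes, 319 (2.08%) were higher and 285 lower at an unadjusted p under 0.05, 3.93% together. Of 30 subunits of TFIID and SAGA, 1 was higher and 1 lower at an unadjusted p under 0.05, and their median was -0.03. Of 22 erythroid maturation genes 0 passed at an unadjusted p, and their median was 0.10; Slc4a1, the anion exchanger of the red cell membrane, stood at 0.22. The 19 genes of hypoxia and glycolysis had a median of -0.66, with 0 called and 5 lower at an unadjusted p under 0.05. Aldoa, a glycolytic aldolase, did not separate the classes and had 357, 645 and 600 CPM in carriers, 1060 and 1580 in TAF10KO, and 393 and 600 in WT. The WT livers, though lox/lox, lay with the carriers and the TAF10KO livers stood apart. When carriers were set against TAF10KO alone, 26 genes were called (0.166% of 15706), among them Aldoa, Bnip3, Pgk1 and Vegfa. Against WT alone 7 were called (0.0458% of 15291). Hbb-bt, Gm1966, Hbb-bh1 and Rprl3 were called in both. These 2 contrasts share the carriers, so the overlap is not a repeat.

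The lists of integrated stress (13 genes tested), interferon response (17) and immediate-early and heat-shock genes (12) had 0 called members by either tool and medians of -0.65, 0.28 and -0.20. At an unadjusted p under 0.05, 2 stress genes were lower, 1 interferon gene was higher and 0 heat-shock or immediate-early genes passed. The share over all genes was 3.93%. Irf9, a factor of interferon signalling, stood at 0.28. Among markers of other cells 0 were called. At an unadjusted p under 0.05, 2 of 11 macrophage genes were higher and 2 of 10 neutrophil genes lower. Of 16 hepatocyte genes 1 was higher and 2 were lower. The medians were -0.13 for hepatocytes, -0.17 for endothelium, 0.35 for macrophages, 0.18 for mesenchyme, -0.40 for neutrophils and -0.24 for megakaryocytes. Mesenchymal markers summed to 229 to 2640 CPM in carriers and to 203 to 1690 in lox/lox livers, with overlap. Their part in the differences on chromosome 7 was not tested.

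Genes switched fully on or off in some libraries were searched for across the autosomes, by a rule chosen and then narrowed after values were seen. The 7 libraries had to split into a high and a low set with at least an 8-fold gap, after adding 0.1 CPM, and the high set had to reach 1 CPM. Of 13788 genes examined 79 met the rule (0.573%), and only Gm1966 split carriers from lox/lox livers. Carrier replicate 1 alone was high for 34 and alone low for 5, the date code gave the split for 13, 1 other library stood apart for 9, and other sets of libraries for 14. The carriers with a knockout allele alone were high for 3 pseudogenes, Rps13-ps1 on chromosome 8 and Gm10167 and Rps15a-ps5 on chromosome 5. Rps13-ps1 stood at 43.4 and 40.4 CPM in these carriers and at 0.245 to 0.741 in the other 5 libraries.

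Splits that crossed the classes were found on other chromosomes. Ccnb1ip1, a regulator of meiotic crossing over, the cystatin Stfa1 and the aspartic protease Ctse were high in sets of livers that mixed both classes. Ctse stood at 230 to 281 CPM in carrier replicate 2, TAF10KO replicate 2 and WT replicate 2 and at 10 to 16.8 in the other 4. Nnt, a mitochondrial transhydrogenase whose internal exons are deleted in C57BL/6J, stood at 37.9 to 61.7 CPM in all 7 libraries, and a count over the whole gene does not show a deletion of some exons. The source of these splits was not tested.

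**Figure D5:**
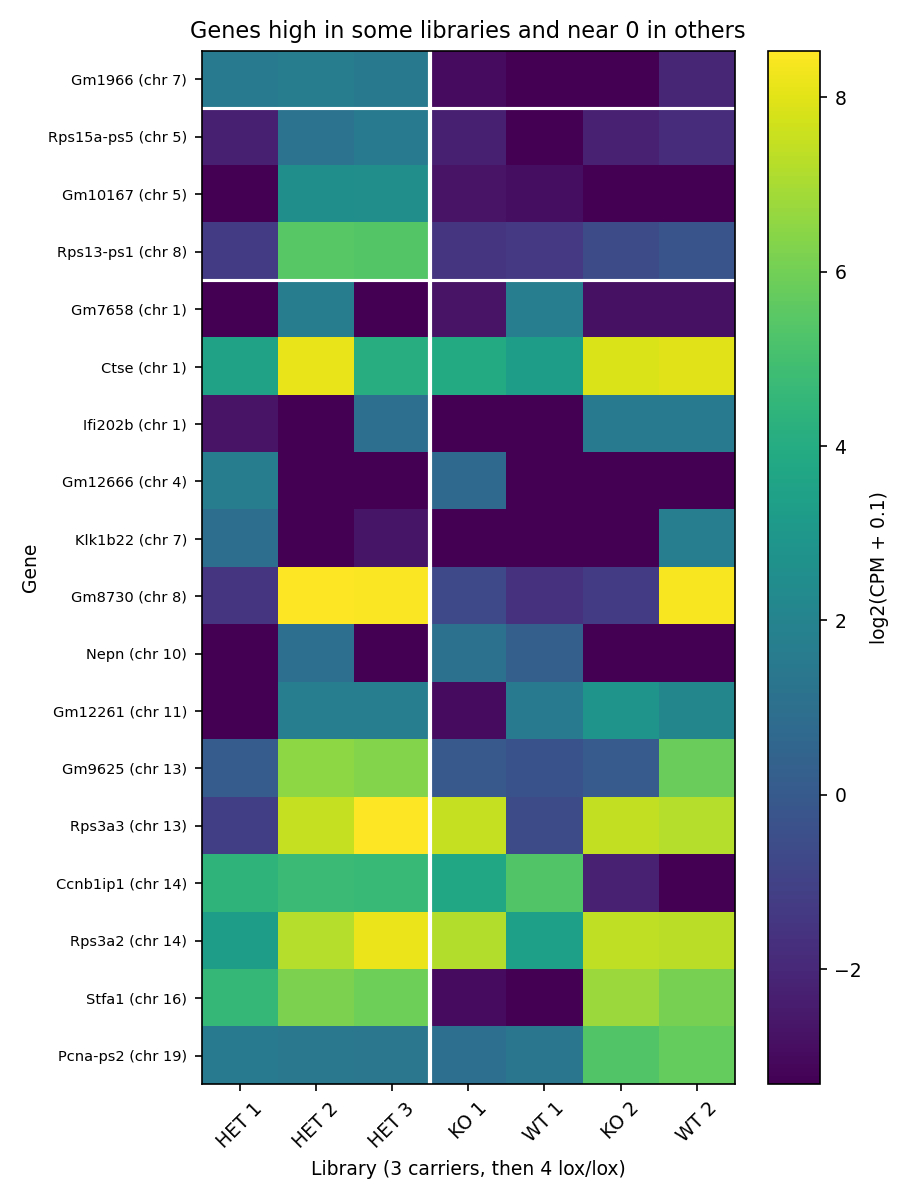
Levels as log2(CPM + 0.1), in colour, of the genes that met the 8-fold gap rule, without the date-code genes and those in which 1 library stood apart; rows are genes with their chromosome, columns the 3 carriers and then the 4 lox/lox livers, with white lines between patterns. Gm1966 in the top row is the only gene whose split matches the classes.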

How the data were processed

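mRNA sequencing of 7 fetal livers was analysed from 1 deposited table of whole-number read counts per Ensembl gene and library, made by the authors with no normalization. The submitters' processing notes name the mm10 build, DESeq2 and TopHat2 2.0.8, and neither they nor the labels give the counter, annotation release or strand setting. Each table held 39017 genes and 5 summary lines, which were removed; 14.07% to 22.25% of reads aligned to several places and were in no gene. GENCODE M21, also on mm10, gave symbols and positions (37693 genes matched; the 1324 others held 0.198% of counts).

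The comparison, its members and the gene lists were chosen with earlier results of these data known. The test was edgeR 4.0.16 in R 4.3.3, with filterByExpr by allele class, TMM factors and the robust quasi-likelihood F test, over all 7 libraries with a date-code block, two-sided, Benjamini-Hochberg adjusted over 15350 genes, threshold 0.05. The script was tested on simulated data. Log2 CPM used a prior count of 2; SE is the log2 difference divided by the square root of F. The pairing by date code comes from the titles: deviations from class means correlated at 0.35 to 0.68 in 6 same-code pairs of libraries across classes and at -0.72 to -0.46 in 6 others. Deviations from a class mean cancel within the class, so the negative values follow from the positive ones. The biological coefficient of variation was 15.4% with the block and 31.1% without. No replicate was a copy of another (chi-square per degree of freedom 17.8 to 206).

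Named by rule were Taf10, Epor, the 8 nearest abundant genes, the genes within 10 Mb with the smallest p (6, of which 2 called), called genes elsewhere, and the called or most abundant member of each list. Other named genes, the ratio of near-empty genes, the share of Hbb-bt, the test between codes and the gap rule (first tried at a smaller gap and level, then narrowed) were chosen after values were seen. Exact or Wilson 95% intervals cover counting error only. Alternatives were no block, 3 genotypes, TAF10KO or WT alone, other size factors, DESeq2 1.42.0, other filters, globins out of the totals, embryo sex, and each library left out.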

Additional observations from a re-analysis of the deposited data

Results flagged for a closer look

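Of 49 tested genes named in the text, 7 had a carrier minus lox/lox difference that changed between the date codes by edgeR's test of that difference. Over all genes it was 42 of 15350 (0.274%). These 7 were named after their values were seen, so their share of the 49 is no result. The change, second code minus first, was 5.80 on the log2 scale for the pseudogene Rps13-ps1 (adjusted p = 0.00385), which was high in both carriers with a knockout allele and low in the carrier with a lox allele. It was -6.30 for Rn7sk, -6.88 for Rpph1 (adjusted p = 0.00436), -4.29 for Actc1 and -4.84 for Hist1h4d, all of which were highest in carrier replicate 1, the only carrier on the first code. For Stfa1 it was -10.57 (adjusted p = 0.000524), with 23.5 CPM in carrier replicate 1 against 0.0272 and 0 in the lox/lox livers of that code, and 61.3 to 106 in the libraries of the second code. For the pseudogene Pcna-ps2 it was -4.58 (adjusted p = 0.00228), with 39.5 and 53.0 CPM in the lox/lox livers of the second code and 1.93 to 2.85 in the other 5 libraries. Of 54 named genes checked for 1 outlying lox/lox library by Dixon's ratio at the 95% level, 1 passed: Gm5900 was at 0.0544 CPM in TAF10KO replicate 1 and at 0 in the other 3 lox/lox livers. With 0 in all the others any count passes this ratio, and this one rests on 2 reads. Chance passes about 1 in 20 groups of values well above 0, a rate that does not hold for such counts.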

How the results depend on the processing

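The same genes within 5 Mb of Taf10 were called (Hbb-bt and Gm1966) with other size factors and with globins left out of the totals. Over the whole genome, chromosome 7, the 5 Mb window and the gene lists, 3, 2, 2 and 2 genes were called. The date code pairs the libraries, and with no replicate block each of these counts was 1, Hbb-bt. With 3 genotypes as groups they were 13 (genome), 5 (chromosome 7) and 9 (lists), and against TAF10KO alone 26, 5 and 12; against WT alone the genome gave 7. DESeq2 gave 27, 8, 6 and 5, of 27480 genes with 5325 left without an adjusted p. With no filter on low counts they were 448, 38, 14 and 47, and with at least 5 CPM in 2 libraries each was 1, since Gm1966 and Rprl3 were not tested. Embryo sex as a term left 1 on chromosome 7, in the window and in the lists, and a window of 1 Mb held 1. Leaving out each library in turn gave 1 to 5 over the genome and 1 to 2 for each of the others; without carrier replicate 1 the 4 called genes were Hbb-bt, Gm10167, Pcna-ps2 and Rps13-ps1. The number of separated genes, 1678 over the genome and 25 in the window, was 6690 and 54 against TAF10KO alone and 5694 and 48 against WT alone, where fewer libraries must separate; it was 2373 to 3886 and 26 to 39 with 1 library left out, and 13 in the window at 5 CPM. Without carrier replicate 1 no such count could be made, as the first code then held no carrier. Taf10 stood at 0.75 against TAF10KO alone and at -0.14 to 0.52 with 1 library left out, and no direction is read for it. For other genes that were not called, the directions given describe their values and are not called differences. With counts under 100 over a class, the near-empty genes are known only to the width of their intervals.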
